A study of Mus musculus with 38 samples.

Results

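Saa3, Hp, Lcn2, Lbp and Ptx3 are 5 genes for secreted acute phase and pattern-recognition proteins, followed here in mouse embryonic fibroblasts with and without an altered RelA. They were chosen by name, with earlier results of these data known. Each matched 1 of the 45706 gene identifiers in each of the 2 count tables, and all 5 had counts in some library of both tables. The cells were primary fibroblasts of C57BL/6 embryos, a mixed mesenchymal culture, either homozygous for the knock-in allele RelA-TA-KI or wild type (WT). RelA is the NF-kB subunit encoded by Rela; the series title speaks of transactivation, which TA is taken to stand for. The labels do not say which residues were changed, or from how many embryos the cultures came. All cells were serum-starved overnight. The TNF table holds RelA-TA-KI and WT cells, untreated or given 10 ng/ml TNF for 0.5, 1, 3 or 8 h, with 2 libraries in each of 10 groups. A second table of 18 libraries holds untreated cells and cells given 100 ng/ml LPS or 20 ug/ml Poly(I:C) for the same times, with 1 library per genotype and condition. What was measured is polyadenylated RNA, by stranded single-end sequencing of 50 bases.

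The acute phase response is the change in plasma proteins that follows infection or injury. In the liver it is driven largely by interleukin 6 through STAT3 and by interleukin 1 and TNF through NF-kB and C/EBP factors, and many of its genes are also switched on in macrophages, adipocytes and stromal cells. Serum amyloid A3 (Saa3) is the serum amyloid A form made mainly outside the liver in mice. Haptoglobin (Hp) binds free haemoglobin, and lipocalin 2 (Lcn2) binds bacterial siderophores and so withholds iron. LPS-binding protein (Lbp) hands bacterial LPS to CD14 and the TLR4 complex. Pentraxin 3 (Ptx3) is a long pentraxin that binds microbes and complement component C1q. NF-kB acts by binding short DNA sites through its Rel homology domain, while RelA recruits the transcription machinery through activation domains at its carboxyl end.

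The promoter windows of 3 of the 5 genes, from RefSeq on GRCm38.p6, are given to show where the letters of known factor motifs lie beside genes that responded to TNF or LPS. Each runs over 300 bases, 250 before and 50 after the RefSeq start, 5′ to 3′ on the gene's strand. Lcn2 lies on the minus strand (chr2:32387690-32387989), Ptx3 on the plus strand (chr3:66219637-66219936) and Saa3 on the minus strand (chr7:46715627-46715926). Capitals mark matches to any motif searched; no window was given for Hp or Lbp.
Saa3: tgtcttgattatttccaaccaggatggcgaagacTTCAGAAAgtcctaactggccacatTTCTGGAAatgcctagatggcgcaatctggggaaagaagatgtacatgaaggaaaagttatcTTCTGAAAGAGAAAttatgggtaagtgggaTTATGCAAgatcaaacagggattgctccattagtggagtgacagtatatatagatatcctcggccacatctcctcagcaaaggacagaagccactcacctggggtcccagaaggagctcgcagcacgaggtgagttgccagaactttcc
Lcn2: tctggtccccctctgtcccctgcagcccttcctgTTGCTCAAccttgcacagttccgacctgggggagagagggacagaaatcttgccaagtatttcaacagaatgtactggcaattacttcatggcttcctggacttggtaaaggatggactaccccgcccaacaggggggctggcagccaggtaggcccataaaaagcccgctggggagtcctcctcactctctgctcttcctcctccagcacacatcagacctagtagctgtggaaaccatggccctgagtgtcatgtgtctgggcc
Ptx3: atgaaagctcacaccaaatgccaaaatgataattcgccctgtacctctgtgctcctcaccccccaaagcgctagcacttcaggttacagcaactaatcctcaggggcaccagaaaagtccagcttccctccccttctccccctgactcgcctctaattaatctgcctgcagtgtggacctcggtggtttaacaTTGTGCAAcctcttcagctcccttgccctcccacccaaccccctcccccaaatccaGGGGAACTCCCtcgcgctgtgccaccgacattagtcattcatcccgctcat
The motifs were the NF-kB consensus, a C/EBP core (TTNNGNAA), a STAT palindrome (TTCNNNGAA), AP-1 (TGANTCA), the interferon-stimulated response element and a TATA box (TATAAA), each on both strands. The C/EBP core lay in all 3 windows, and in 40.7% of 32851 such windows of the genome. Saa3 held 4 of these cores, starting 216, 191, 129 and 99 bases before the start, while Lcn2 held 1 at 216 bases and Ptx3 1 at 57 bases. The interferon-stimulated response element was found in Saa3 alone of the 3, at 125 bases, overlapping a C/EBP core; 3.44% of all windows held it. Ptx3 alone held the NF-kB consensus, as 2 overlapping matches that begin 1 base before the start and at the start, and 8.46% of all windows held it. The STAT, AP-1 and TATA letters were in none of the 3 windows. A match is a description of the letters and was not measured as binding here.

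Total counts per library ran from 6.72M to 9.59M in the TNF table and from 7.02M to 9.43M in the other. Fibroblast markers summed to 43100 to 50700 CPM (counts scaled by TMM library sizes) in RelA-TA-KI libraries and 34600 to 46900 CPM in WT libraries of the TNF table, and all 13 had counts in every library. Macrophage markers were present throughout, all 20 with counts in every library, at 1510 to 5130 CPM in RelA-TA-KI and 1310 to 2640 CPM in WT with TNF, and at 4420 to 8640 CPM and 5430 to 7410 CPM in the second table. Neutrophil markers, which matter because neutrophil granules hold lipocalin 2 and haptoglobin, summed to at most 10.1 CPM in RelA-TA-KI and 4.3 CPM in WT with TNF, and Elane and Retnlg had no count in either genotype. In the second table they reached 26.5 and 33.8 CPM, with Mpo, Ngp and S100a9 at 0 in both genotypes. Hepatocyte markers summed to at most 20.6 CPM in RelA-TA-KI and 10.0 CPM in WT in the TNF table and to at most 6.19 and 0.624 CPM in the other. WT replicate 2 of the TNF table stood apart in sex-linked RNA. The RelA-TA-KI libraries and WT replicate 1 had Xist at 337 to 517 CPM and Y-linked Ddx3y at no more than 0.676 CPM, while WT replicate 2 had Xist at 2.32 to 3.9 CPM and Ddx3y at 128 to 160 CPM. In the second table the RelA-TA-KI libraries had little Xist, at most 1.49 CPM, and the WT libraries had both RNAs, so there genotype and sex cannot be told apart. Rela stood at 61.8 to 173 CPM in RelA-TA-KI and 64.1 to 307 CPM in WT over both tables; gene counts do not show the altered codons, so they do not check the genotype labels. In bulk RNA, fewer cells of a type and less RNA per cell cannot be told apart.

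Before treatment the 5 genes covered a wide range of levels, and Ptx3 led the order in both genotypes. In RPKM, CPM per kilobase of exons, untreated RelA-TA-KI cells of the TNF table averaged 28.6 for Ptx3, 1.96 for Hp, 0.886 for Lbp, 0.456 for Saa3 and 0.0469 for Lcn2. Untreated WT cells averaged 20.9 for Ptx3, 5.22 for Saa3, 2.18 for Hp, 0.49 for Lbp and 0.0192 for Lcn2. Saa3 was the gene whose place in this order differed, behind Hp and Lbp in RelA-TA-KI and ahead of both in WT, although its WT replicates were far apart at 8.74 and 1.71 RPKM and Hp lay between them. None of the 5 genotype differences at 0 h was called by edgeR's quasi-likelihood test at an adjusted p under 0.05, the rule for every call below. The share of all genes tested that was called lower in RelA-TA-KI was then 0.00722%. Saa3 alone had an unadjusted p under 0.05, and DESeq2 called none of the 5.

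Saa3, on chromosome 7 at 46711998 to 46715676 of mm10 (minus strand), was nearly silent in RelA-TA-KI cells throughout the TNF course. RelA-TA-KI replicates 1 and 2 had 3 and 1 counts untreated, 0 and 0 at 0.5 h, 3 and 4 at 1 h, 2 and 0 at 3 h and 8 and 8 at 8 h. WT replicates 1 and 2 had 32 and 9 counts untreated, 30 and 28 at 0.5 h, 18 and 11 at 1 h, 71 and 194 at 3 h and 459 and 1058 at 8 h. The genotypes did not overlap at any of the 5 times, and the WT rise came after 1 h. At 8 h Saa3 averaged 0.956 ± 0.0771 CPM in RelA-TA-KI and 95.9 ± 52.5 CPM in WT (SD, n = 2 each). In WT it rose by a log2 fold of 2.65 at 3 h (SE 0.57, adjusted p = 0.00657, edgeR) and 5.24 at 8 h (SE 0.54, adjusted p = 1.63e-05). Saa3 was called lower in RelA-TA-KI at 3 h, where 2 counts against 265 give a 142-fold difference with a 95% counting interval of 38.9 to 1180, and at 8 h, where 16 counts against 1517 give a 101-fold difference (62.2 to 178). The adjusted p values were 0.000843 and 1.51e-05. The difference was already there in size before TNF, with 4 counts against 41 (10.2-fold, 3.7 to 39.3, adjusted p = 0.514), and at 0.5 h, with no count against 58. With a floor of 3 counts over the group this is 22-fold lower, and the 95% counting interval starts at 17.4-fold. EdgeR did not call it at 0.5 h (adjusted p = 0.246). DESeq2 did (adjusted p = 0.000794), as did edgeR on those groups alone (adjusted p = 0.0263). EdgeR without the filter on low counts called it too (adjusted p = 5.25e-18), with an SE of 0.761 in place of 1.826. That smaller SE comes from the same counts, so the unfiltered call is not separate support. RelA-TA-KI counts at 8 h were 3.98 times those of untreated RelA-TA-KI cells (1.28 to 16.4), with no call (adjusted p = 0.301). The difference of responses, RelA-TA-KI minus WT, was -3.31 at 8 h and was not called (SE 2.13, adjusted p = 0.385). The WT call at 3 h was lost without WT untreated replicate 2 (log2 fold 1.79, adjusted p = 0.0916) and without WT 3 h replicate 2 (2.05, adjusted p = 0.0729). Of 2602 windows of 50 bases over all annotated transcripts of the gene, 108 also occur in other genes, and 9 are shared with another Saa gene. The counted exons span 531 bases, so the windows also cover sequence outside them and do not give the share for the counted reads. Saa1 and Saa2 had at most 1 count in any TNF library.

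Hp, on chromosome 8 at 109575130 to 109579172 (minus strand), showed the smallest WT rise of the 5. RelA-TA-KI replicates had 21 and 23 counts untreated, 16 and 16 at 0.5 h, 40 and 40 at 1 h, 9 and 58 at 3 h and 12 and 40 at 8 h. WT replicates had 16 and 35 counts untreated, 13 and 24 at 0.5 h, 12 and 44 at 1 h, 28 and 50 at 3 h and 71 and 94 at 8 h. The groups overlapped at every time but 8 h. In WT the log2 fold at 8 h was 1.80 (SE 0.60, adjusted p = 0.0462), just past the threshold, and this call was lost when any one of 14 libraries was left out, with folds of 1.56 to 2.17 and adjusted p of 0.0524 to 0.185: those of WT untreated, 0.5, 3 and 8 h and of RelA-TA-KI untreated, 0.5 and 1 h. In RelA-TA-KI the fold at 8 h was 0.22 (SE 0.69, adjusted p = 0.821). The genotype difference at 8 h was -1.77 (SE 0.60, adjusted p = 0.0587), and it was called without any one of WT 1 h replicate 1 (adjusted p = 0.0438), WT 1 h replicate 2 (0.0448), RelA-TA-KI 3 h replicate 1 (0.0231) or RelA-TA-KI 3 h replicate 2 (0.0234).

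Lcn2, on chromosome 2 at 32384633 to 32388252 (minus strand), stayed scarce in both genotypes with TNF, with at most 13 counts in a library. RelA-TA-KI replicates had 2 and 0 counts untreated, 4 and 1 at 0.5 h, 1 and 5 at 1 h, 0 and 3 at 3 h and 13 and 13 at 8 h. WT replicates had 0 and 1 counts untreated, 0 and 1 at 0.5 h, 2 and 1 at 1 h, 7 and 10 at 3 h and 10 and 11 at 8 h. By 8 h the libraries of both genotypes lay above all untreated ones, while at 3 h both WT libraries lay above both RelA-TA-KI libraries. In RelA-TA-KI the rise at 8 h, 26 counts against 2, was 12.9-fold (3.24 to 113, adjusted p = 0.00709), and the step from 3 to 8 h, 26 counts against 3, was 8.88-fold (2.72 to 45.8, adjusted p = 0.0227). In WT the rise was 17.8-fold at 3 h (17 counts against 1, 2.78 to 742, adjusted p = 0.0311) and 22.4-fold at 8 h (21 against 1, 3.6 to 926, adjusted p = 0.0125). At 8 h RelA-TA-KI stood at 1.16 times WT (0.627 to 2.17, adjusted p = 0.845), and at 3 h at 0.165 times WT (0.0309 to 0.569, adjusted p = 0.213). Of the 4 neutrophil markers tested in RelA-TA-KI, 1 was called higher at 8 h than untreated, beside 21.6% of all genes. Between 3 and 8 h 2 of 4 were called higher, as was 1 of 6 epithelial markers, beside 10.2% of all genes. Ltf and S100a9 below were picked from the 11 listed after their values were seen. Lactotransferrin (Ltf), another granule protein, had no count untreated or at 3 h in either genotype, and 12 and 15 counts at 8 h in RelA-TA-KI against 0 and 1 in WT. S100a9 had 0 and 0 counts at 3 h and 11 and 33 at 8 h in RelA-TA-KI, against 1 and 18 at 3 h and 0 and 11 at 8 h in WT. Both genes also had counts at 1 h in RelA-TA-KI, 4 and 2 of Ltf and 15 and 8 of S100a9. All 11 neutrophil markers together summed to 1.97 and 4.17 CPM untreated, 0.725 and 1.45 CPM at 3 h and 4.15 and 10.1 CPM at 8 h in RelA-TA-KI. In WT they summed to 1.6 and 2.02 CPM untreated, 2.21 and 4.3 CPM at 3 h and 1.28 and 4.02 CPM at 8 h, with none called at these times or between them. Over the TNF libraries the sums of the genotypes overlap, with Elane and Retnlg at 0, and their part in the Lcn2 result was not tested.

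The Lcn2 calls with TNF were lost when single libraries were left out, in several cases with a fold of like size. The RelA-TA-KI call at 8 h was lost without RelA-TA-KI untreated replicate 2 (log2 fold 2.57, adjusted p = 0.0755). The step, 3.05 on the log2 scale, was lost without RelA-TA-KI 3 h replicate 1 (2.16, adjusted p = 0.162), 8 h replicate 1 (2.97, adjusted p = 0.0747) or 8 h replicate 2 (3.13, adjusted p = 0.0846), with DESeq2 (3.19, adjusted p = 0.0772) and in a fit of only its groups (adjusted p = 0.055). The WT call at 3 h, a log2 fold of 3.85, was lost without WT untreated replicate 1 (3.21, adjusted p = 0.123) or 2 (adjusted p = 0.115) or WT 3 h replicate 1 (3.89, adjusted p = 0.0781) or 2 (3.81, adjusted p = 0.101). That at 8 h, a fold of 4.18, was lost without WT untreated replicate 1 (3.54, adjusted p = 0.068) or 2 (adjusted p = 0.0588) or WT 8 h replicate 2 (4.12, adjusted p = 0.051). DESeq2 gave no adjusted p for the WT rise of Lcn2 at 3 h and 0.0501 for that at 8 h.

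Lbp, on chromosome 2 at 158306493 to 158332852 (plus strand), rose late in WT, with no call in RelA-TA-KI in the main fit. RelA-TA-KI replicates had 28 and 44 counts untreated, 10 and 35 at 0.5 h, 22 and 30 at 1 h, 15 and 22 at 3 h and 33 and 34 at 8 h. WT replicates had 16 and 24 counts untreated, 12 and 31 at 0.5 h, 18 and 23 at 1 h, 42 and 111 at 3 h and 277 and 466 at 8 h. Untreated, RelA-TA-KI was the higher genotype here, without a call (log2 difference 0.846, SE 0.514, adjusted p = 0.581, edgeR). In the untreated pair of the second table it was the lower, with 50 counts against 83 (ratio 0.658, 0.454 to 0.945). At 3 and 8 h of TNF both WT replicates lay above both RelA-TA-KI replicates. At 8 h Lbp averaged 3.99 ± 0.226 CPM in RelA-TA-KI and 47.0 ± 16.3 CPM in WT (SD, n = 2 each). The WT log2 fold was 1.95 at 3 h (SE 0.47, adjusted p = 0.0113) and 4.30 at 8 h (SE 0.44, adjusted p = 8.75e-06). The RelA-TA-KI fold was -0.995 at 3 h (SE 0.519, adjusted p = 0.193) and -0.10 at 8 h (SE 0.47, adjusted p = 0.877). At 3 h RelA-TA-KI had 37 counts against 72 untreated, a ratio of 0.5 with a counting interval of 0.327 to 0.753. This fall was called by edgeR without the filter on low counts (adjusted p = 0.00927, SE 0.293). The genotype difference, RelA-TA-KI minus WT, was -2.10 at 3 h (SE 0.48, adjusted p = 0.0242) and -3.56 at 8 h (SE 0.41, adjusted p = 5.27e-05). The responses themselves differed at 8 h, by -4.40 (SE 0.65, adjusted p = 0.00152), and not by the threshold at 3 h (-2.95, SE 0.70, adjusted p = 0.0701). DESeq2 called the 3 h difference (-2.95, adjusted p = 0.00838). EdgeR without the filter on low counts called it too (adjusted p = 3.36e-11), but with an SE of 0.396 from the same counts, so that is not separate support. Without WT 3 h replicate 1 it stood at -3.33. The WT call at 3 h was lost without WT untreated replicate 1 (adjusted p = 0.0554) or 2 (0.0885) or WT 3 h replicate 2 (0.14). The genotype call at 3 h was lost without WT 3 h replicate 2 (0.291), RelA-TA-KI 3 h replicate 1 (0.207) or RelA-TA-KI 3 h replicate 2 (0.136).

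Ptx3, on chromosome 3 at 66219910 to 66225805 (plus strand), was the most abundant of the 5 and the first to respond. RelA-TA-KI replicates had 61.4 and 91.8 CPM untreated, 53.4 and 67.3 at 0.5 h, 75.9 and 87.8 at 1 h, 70.3 and 85.4 at 3 h and 66.6 and 81.5 at 8 h. WT replicates had 47.9 and 64.1 CPM untreated, 101 and 108 at 0.5 h, 212 and 227 at 1 h, 359 and 482 at 3 h and 495 and 780 at 8 h. RelA-TA-KI libraries stayed within 53.4 to 91.8 CPM, and from 0.5 h on every WT library lay above them. In WT the log2 fold was 0.89 at 0.5 h, not called by edgeR (SE 0.24, adjusted p = 0.143) but called by DESeq2 (0.90, adjusted p = 0.018). It was 1.96 at 1 h (SE 0.24, adjusted p = 0.000128), 2.90 at 3 h (SE 0.24, adjusted p = 1.93e-06) and 3.5 at 8 h (SE 0.25, adjusted p = 2.6e-07). In RelA-TA-KI the folds ran between -0.34 at 0.5 h and 0.09 at 1 h, with -0.05 at 8 h (SE 0.24, adjusted p = 0.886). The difference of responses was -1.87 at 1 h (SE 0.34, adjusted p = 0.0264), -2.88 at 3 h (SE 0.34, adjusted p = 0.000497) and -3.55 at 8 h (SE 0.34, adjusted p = 5.43e-05). RelA-TA-KI was lower than WT at 1 h (-1.42, SE 0.23, adjusted p = 0.00538), 3 h (-2.44, SE 0.24) and 8 h (-3.10, SE 0.24, adjusted p = 2.15e-06). At 1 h both calls were lost when single libraries were left out, with folds of -1.32 to -1.52 for genotype and -1.55 to -1.96 for the difference of responses. The genotype call was lost without WT 1 h replicate 2 (adjusted p = 0.0538), RelA-TA-KI 1 h replicate 1 (0.117) or RelA-TA-KI 1 h replicate 2 (0.0521). The call of the difference was lost without WT untreated replicate 1 (0.178), WT 0.5 h replicate 1 (0.0512), WT 1 h replicate 1 (0.08) or 2 (0.117), RelA-TA-KI untreated replicate 2 (0.212), or RelA-TA-KI 1 h replicate 1 (0.184) or 2 (0.0994). Ptx3 lies within Veph1, which runs on the other strand and had 2 to 26 counts in any library; the strand setting of the counting is not given in the sources used here, so reads of the pair cannot be told apart for certain.

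**Figure D1:**
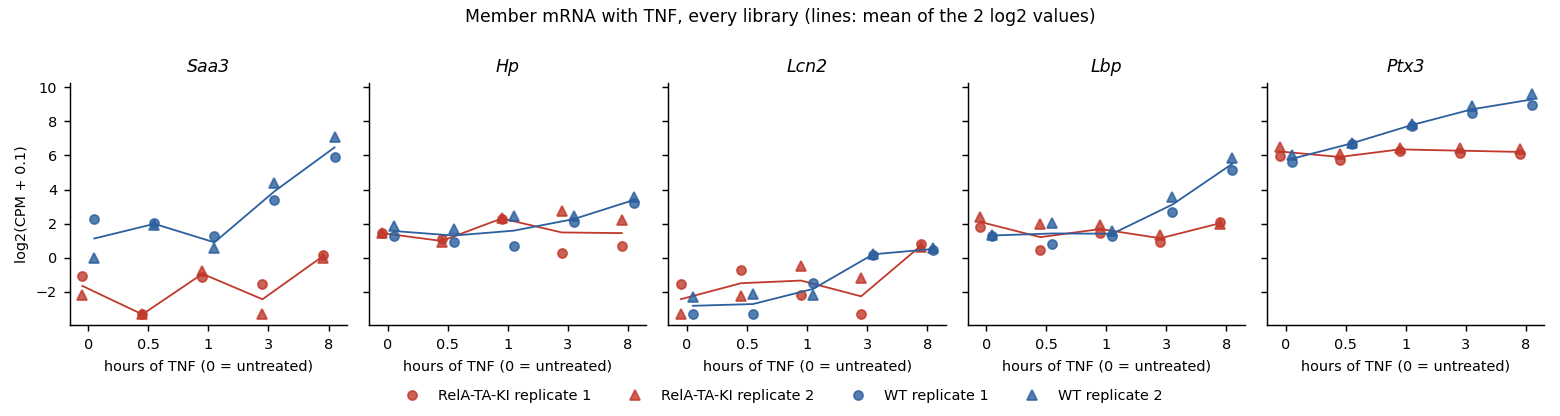
Member mRNA in every TNF library as log2(CPM + 0.1) against hours of TNF, with RelA-TA-KI in red and WT in blue, circles for replicate 1, triangles for replicate 2 and lines for the mean of the 2 log2 values. WT Ptx3 climbs to 495 and 780 CPM and WT Saa3 to 58.8 and 133 CPM at 8 h, while RelA-TA-KI Ptx3 stays at 53.4 to 91.8 CPM and Lcn2 ends at 1.63 and 1.46 CPM in RelA-TA-KI and 1.28 and 1.38 CPM in WT.

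Counted together, none of the 5 genes was called higher in RelA-TA-KI cells at 0.5, 1 or 3 h of TNF and 1, Lcn2, at 8 h, where 0.831, 2.00, 10.9 and 21.6% of all genes tested were called higher. In WT 0, 1, 4 and 5 of the 5 were called higher, against 0.910, 2.57, 9.32 and 12.0% of all genes. RelA-TA-KI cells were called lower than WT for 0 of 5 at 0.5 h, 1 at 1 h, and 3 at 3 h and 3 at 8 h (Saa3, Lbp and Ptx3 at both), against 0.195, 0.852, 2.40 and 8.11% of all genes. The difference of responses was called lower for 0 of 5 at 0.5 h, 1 at 1 h and 3 h (Ptx3) and 2 at 8 h (Lbp and Ptx3), against 0.0506, 0.303, 0.730 and 3.42%. Between 3 and 8 h, 1 of 5 stepped up in RelA-TA-KI (Lcn2, 10.2% of all genes higher) and 2 in WT, where 3.11% of all genes were: Saa3 (2.59, SE 0.43, adjusted p = 0.00439) and Lbp (2.35, SE 0.37, adjusted p = 0.00257). The Saa3 step was lost without WT 8 h replicate 2 (adjusted p = 0.0751). At 0.5 h, where edgeR called no member, DESeq2 called 0 RelA-TA-KI responses, 1 WT response, 1 genotype difference and 0 differences of responses. Unadjusted p under 0.05 in edgeR numbered 0 for the RelA-TA-KI response, 1 for the WT response, 2 for the genotype difference and 1 for the difference of responses. At 1 and 3 h the RelA-TA-KI response had none with an unadjusted p under 0.05 and DESeq2 called none. Since the 5 genes were picked with results of these data known, these counts describe the genes and are not independent evidence.

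A comparison within 1 pattern of Xist and Ddx3y, chosen after seeing the data, set both RelA-TA-KI replicates against WT replicate 1 alone. Each WT group then has 1 library, which is assumed to vary like the RelA-TA-KI pairs, the only source of spread in this fit. There the WT rise at 8 h was called for Saa3 (3.66, adjusted p = 0.000525), Lbp (3.93, adjusted p = 0.00175) and Ptx3 (3.37, adjusted p = 0.00011), and not for Hp (1.97, adjusted p = 0.252) or Lcn2 (adjusted p = 0.166). RelA-TA-KI was lower at 8 h for Saa3 (-5.93, adjusted p = 6.61e-05), Lbp (-3.16, adjusted p = 0.00124) and Ptx3 (-2.74, adjusted p = 0.000134), and at 3 h for Saa3 (-6.33) and Ptx3 (-2.22), with Lbp at -1.54 (adjusted p = 0.213). The WT calls at 3 h for Saa3 (1.18, adjusted p = 0.147), Lbp (1.42, adjusted p = 0.258) and Lcn2 (adjusted p = 0.257) were lost, as was the Ptx3 difference of responses at 1 h (-2.04, adjusted p = 0.0723). Saa3 was then called higher at 8 h in RelA-TA-KI (1.93, adjusted p = 0.0473) and lower than WT at 0.5 h (-8.04, adjusted p = 0.0158). Macrophage markers summed at 8 h to 2710 and 5130 CPM in RelA-TA-KI and 1650 and 2640 CPM in WT, so the higher sums stood in the genotype with less Saa3, Lbp and Ptx3; their part in these results was not tested.

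**Figure D2:**
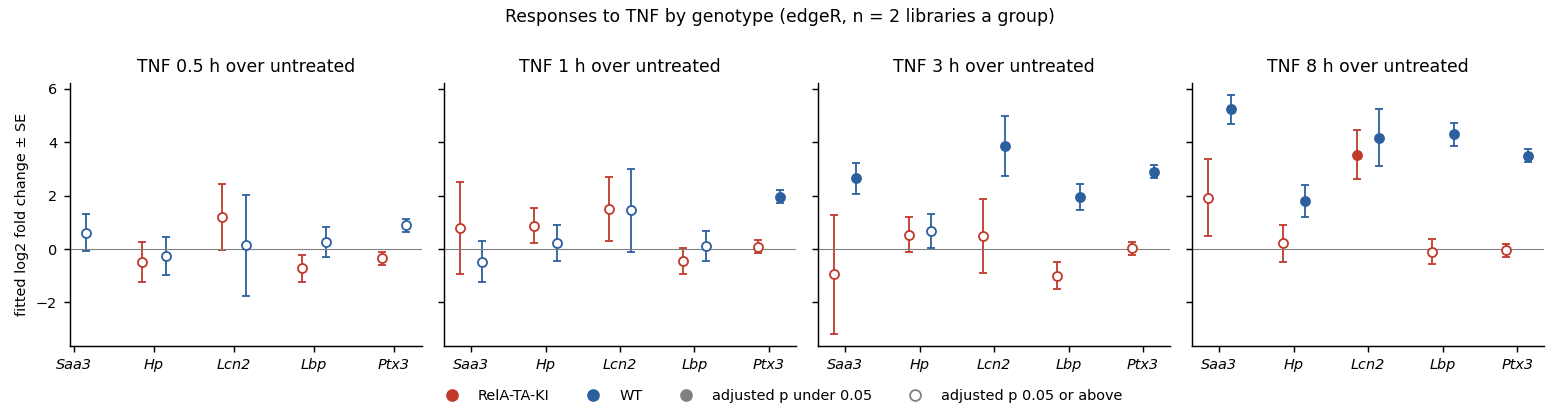
Fitted log2 fold changes of TNF-treated over untreated cells with their SE at each time, RelA-TA-KI left of WT for each gene; filled points passed an adjusted p of 0.05, and the RelA-TA-KI Saa3 response at 0.5 h, with no count at that time, is not drawn. WT points fill in from 1 of 5 genes at 1 h to 5 of 5 at 8 h, while in RelA-TA-KI only Lcn2 at 8 h is filled.

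After 8 h of LPS all 5 genes were higher in WT, and Saa3, Lcn2 and Ptx3 were higher in RelA-TA-KI as well. With 1 library per condition the ratios have no replicate check, and their 95% intervals cover counting error only. A change by size means a log2 CPM ratio of 1 or more either way, with 5 CPM or more in 1 of the 2 libraries. Ptx3 had 102 CPM in untreated RelA-TA-KI cells and 95.2, 122, 817 and 1700 CPM at 0.5, 1, 3 and 8 h of LPS, against 85.5 CPM in untreated WT and 86.3, 245, 2200 and 7620 CPM with LPS. It thus climbed in both genotypes, to 16.7 times its untreated level in RelA-TA-KI at 8 h (15.7 to 17.9) and 89.2 times in WT (83.6 to 95.2). Saa3 had 9 counts in untreated RelA-TA-KI cells and 16, 14, 14 and 223 at the 4 times, against 32 in untreated WT and 37, 41, 1464 and 20614 with LPS. The ratio at 8 h was 40.5 in RelA-TA-KI (21 to 89.8) and 1240 in WT (877 to 1810), and the RelA-TA-KI level stood 99.5-fold below WT (87.2 to 114).

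Lcn2 had, with Saa3, the largest LPS ratios of the 5 genes in WT. It had 7 counts in untreated RelA-TA-KI cells and 5, 3, 8 and 103 at 0.5, 1, 3 and 8 h, against 7 in untreated WT and 5, 5, 291 and 4726 with LPS. The 8 h ratio was 24.1 in RelA-TA-KI (11.3 to 61.3) and 1300 in WT (629 to 3230). For Lbp and Hp in RelA-TA-KI cells, the counting interval of the ratio to untreated included 1 at every time of LPS. Lbp had 50 counts untreated and 31, 36, 24 and 30 with LPS in RelA-TA-KI, against 83 untreated and 67, 57, 528 and 2582 with LPS in WT, an 8 h ratio of 0.981 (0.602 to 1.57) in RelA-TA-KI and 59.8 (48 to 75.3) in WT. Hp had 4 counts untreated and 7, 6, 5 and 3 with LPS in RelA-TA-KI, against 30 untreated and 18, 22, 43 and 402 with LPS in WT, an 8 h ratio of 1.23 (0.18 to 7.25) in RelA-TA-KI and 25.8 (17.8 to 38.7) in WT. Untreated Hp thus stood at 4 counts in RelA-TA-KI and 30 in WT here, but at 21 and 23 in RelA-TA-KI and 16 and 35 in WT in the TNF table.

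**Figure D3:**
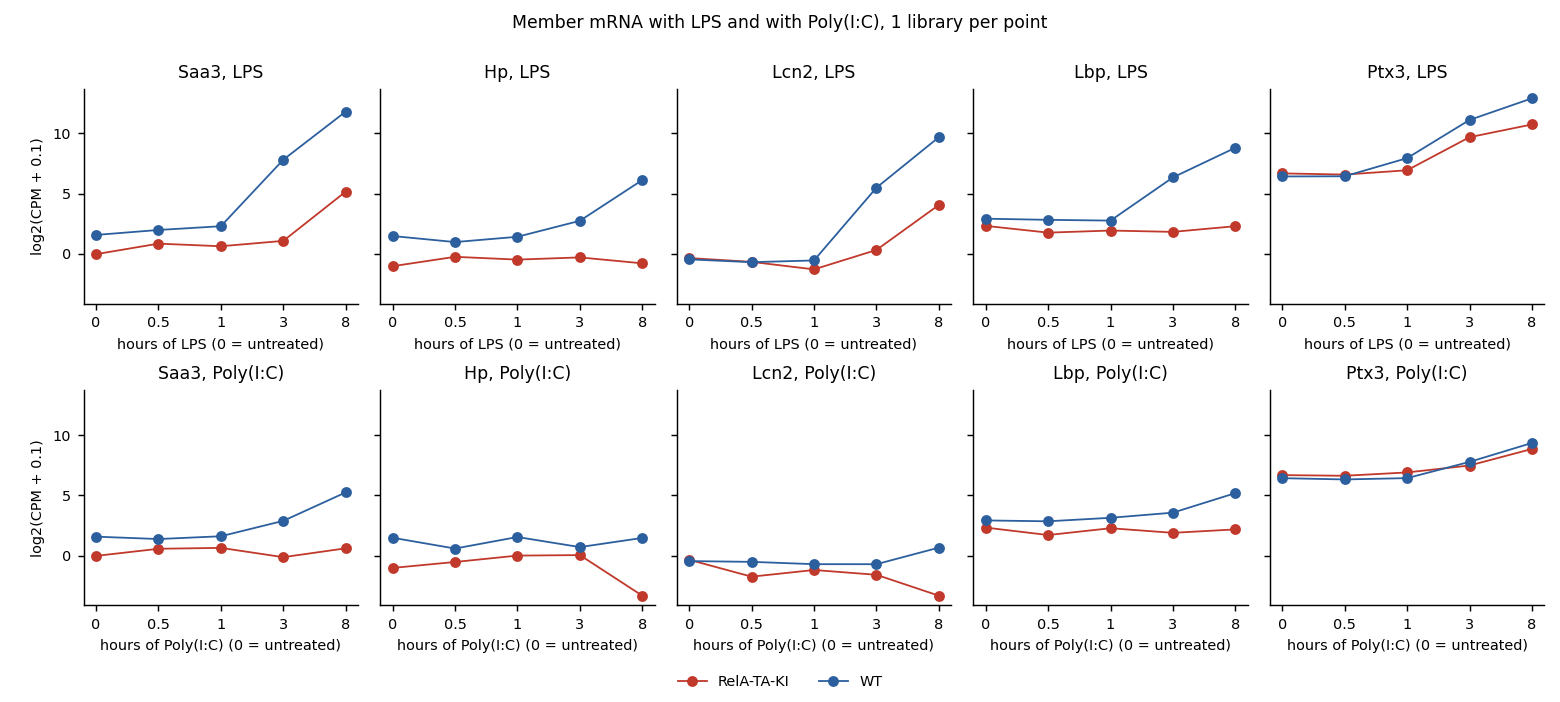
Member mRNA as log2(CPM + 0.1) against hours of LPS (upper row) and Poly(I:C) (lower row), with RelA-TA-KI in red and WT in blue and 1 library per point; untreated libraries are drawn in both rows. With LPS all 5 genes climb in WT and Saa3, Lcn2 and Ptx3 climb in RelA-TA-KI at 8 h; with Poly(I:C) Ptx3 reaches 459 CPM in RelA-TA-KI and 647 CPM in WT.

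Poly(I:C), a double-stranded RNA mimic sensed by TLR3 and cytosolic receptors, raised fewer of the genes and by less. Ptx3 had 98.2, 119, 177 and 459 CPM at 0.5, 1, 3 and 8 h in RelA-TA-KI, against 79.5, 85.8, 218 and 647 CPM in WT, and its 8 h ratios to untreated cells were 4.51 (4.2 to 4.85) and 7.57 (7.05 to 8.12). Saa3 had 14, 13, 7 and 9 counts in RelA-TA-KI and 25, 23, 57 and 255 in WT, with 8 h ratios of 1.61 (0.565 to 4.57) and 13.1 (9.06 to 19.6). Lbp had 32, 42, 31 and 28 counts in RelA-TA-KI and 71, 68, 92 and 245 in WT, with 8 h ratios of 0.9 (0.545 to 1.46) and 4.86 (3.77 to 6.31). In RelA-TA-KI cells, the counting intervals of the ratios of Saa3 and Lbp included 1 at every time of Poly(I:C). Hp had 6, 8, 8 and 0 counts in RelA-TA-KI and 14, 22, 12 and 18 in WT, and Lcn2 had 2, 3, 2 and 0 counts and 6, 4, 4 and 10. With the floor of 3 counts, a count of 0 in that library stands for up to 0.473 CPM.

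By size, 3 of 5 genes were higher after 8 h of LPS in RelA-TA-KI (Saa3, Lcn2 and Ptx3), where 17.6% of all genes with at least 5 CPM were, and 5 of 5 in WT, where 17.8% were. With Poly(I:C) it was 1 of 5 in RelA-TA-KI (15.9% of genes) and 3 of 5 in WT (10.9%). RelA-TA-KI was lower than WT by size for 5 of 5 at 3 h of LPS (3.38% of genes), 5 of 5 at 8 h of LPS (5.02%) and 2 of 5, Saa3 and Lbp, at 8 h of Poly(I:C) (3.85%), and for neither Lbp nor Ptx3 untreated (0.634%). Members under 5 CPM in both libraries could not be counted: Saa3, Hp and Lcn2 in the untreated comparison of genotypes, Hp and Lcn2 in those with Poly(I:C), Hp and Lbp at 8 h of LPS in RelA-TA-KI, and all but Ptx3 at the earlier times of LPS and at every time of Poly(I:C) in RelA-TA-KI. Hp and Lcn2 could not be counted at 8 h of Poly(I:C) in WT either. The counts out of 5 keep such members in, while the shares leave out genes under 5 CPM. Beyond counting error, untreated RelA-TA-KI stood 6.87-fold below WT for Hp (2.42 to 26.8) and 3.26-fold below for Saa3 (1.52 to 7.76). Untreated Lbp stood 1.52-fold below (1.06 to 2.2), while untreated Ptx3 stood at 1.19 times WT (1.09 to 1.3). At 8 h of Poly(I:C), 0 counts of Hp in RelA-TA-KI stood against 18 in WT, a ratio of at most 0.242, and 0 of Lcn2 against 10, a ratio of at most 0.475. The scale of these ratios depends on the library sizes: with total counts in place of TMM the median of all genes moved by -0.69 on the log2 scale at 8 h of LPS in RelA-TA-KI and by -0.72 in WT, and at 8 h of Poly(I:C) by -0.63 and -0.36. Macrophage markers summed to 7290 CPM in RelA-TA-KI and 6640 CPM in WT at 8 h of LPS, and to 8640 and 6700 CPM at 8 h of Poly(I:C).

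**Figure D4:**
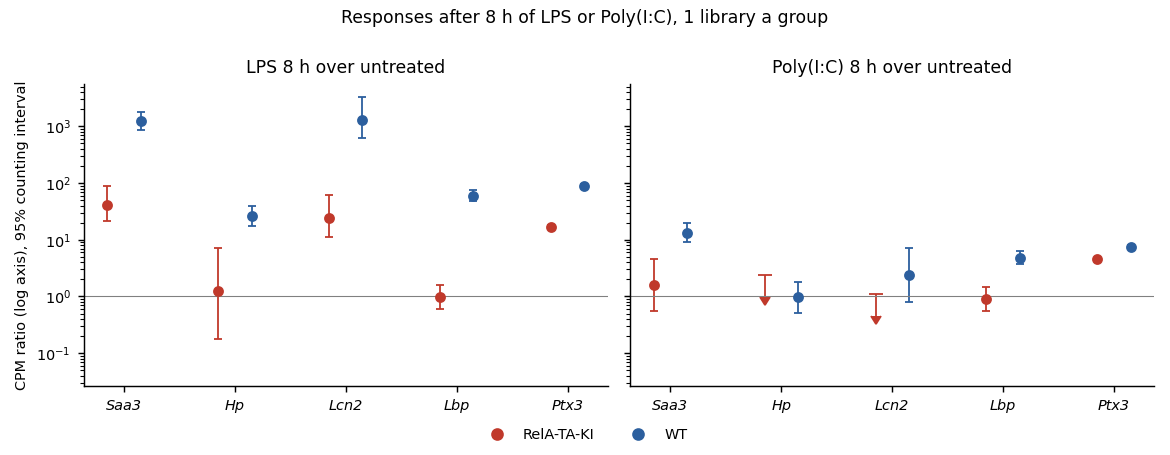
Ratio of CPM after 8 h of LPS or Poly(I:C) to untreated cells on a log axis, RelA-TA-KI left of WT for each gene, with 95% counting intervals from 1 library a group and arrows for upper limits where a library had no count. LPS ratios run from 0.981 for Lbp to 40.5 for Saa3 in RelA-TA-KI and from 25.8 for Hp to 1300 for Lcn2 in WT.

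A fit over the whole second table, with 1 level per condition and 1 genotype difference shared by all 9 conditions, gives the only tests there. Its p-values measure how that difference varied between conditions, not a spread between replicates, and a response is shared by genotypes that the ratios above show to differ. RelA-TA-KI was lower for 3 of the 4 genes tested, where 8.21% of all genes were: Saa3 (-4.50, SE 0.80, adjusted p = 0.00258), Hp (-3.10, SE 0.57, adjusted p = 0.00338) and Lbp (-2.46, SE 0.62, adjusted p = 0.018; 0.0511 without the LPS 3 h libraries). Ptx3 stood at -0.47 (SE 0.26, adjusted p = 0.253). Lcn2 did not pass the filter on low counts in this table. Without the filter it stood at -4.62 (SE 0.53, adjusted p = 9.59e-06). SEs were smaller in that fit, as with 0.644 for Saa3, so this value is not on a par with the others. Lcn2 had 7 counts in each untreated library. It had 8 in RelA-TA-KI against 291 in WT at 3 h of LPS and 103 against 4726 at 8 h. After LPS, 2 of 4 were higher at 3 h (22.8% of all genes) and 4 of 4 at 8 h (30.9%), led by Saa3 (9.13, SE 1.44, adjusted p = 0.000181) and Ptx3 (5.47, SE 0.63, adjusted p = 1.72e-05). After Poly(I:C), 0 of 4 were higher at 3 h (11.0% of all genes; 0 with unadjusted p under 0.05 in edgeR and 0 called by DESeq2) and 1 at 8 h, Ptx3 (2.51, SE 0.55, adjusted p = 0.00287; 25.2% of all genes).

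LPS was set against Poly(I:C) at the same times and with the same untreated libraries, as a mean over both genotypes. LPS gave the higher level of Ptx3 at 3 h (2.85, SE 0.56, adjusted p = 0.0142), the only 1 of 4 genes called, beside 5.36% of all genes. Saa3 at 3 h (4.33, SE 1.31) missed the threshold at an adjusted p of 0.0583 and passed it with DESeq2 (4.18, adjusted p = 0.0288), without the filter on low counts (4.31, adjusted p = 0.0246), without the LPS 8 h libraries (4.28, adjusted p = 0.023) or without the Poly(I:C) 8 h libraries (4.39, adjusted p = 0.046). At 8 h LPS was higher for 3 of 4, beside 6.39% of all genes: Saa3 (5.93, SE 1.16, adjusted p = 0.00862), Hp (4.34, SE 0.93, adjusted p = 0.013) and Ptx3 (2.96, SE 0.56, adjusted p = 0.00764). Lbp stood at 2.96 as well, with a wider error (SE 1.03, adjusted p = 0.0768). For Hp at 8 h the counts with LPS and Poly(I:C) were 402 and 18 in WT but 3 and 0 in RelA-TA-KI. Lcn2, fitted only without the filter, stood at 5.72 at 3 h (SE 0.99, adjusted p = 0.00293) and 8.78 at 8 h (SE 0.82, adjusted p = 3.31e-06). TNF was measured in another table, so no test was made against it.

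Of 29 other acute phase genes listed, 10 passed the filter in the TNF table, and Apcs, Hamp, Orm2 and Saa1 had no count in either genotype. At 8 h of TNF, 5 of the 10 were called higher in RelA-TA-KI (median log2 fold 0.84, all genes -0.02), beside 21.6% of all genes, and 8 in WT (median 1.79, all genes -0.01), beside 12.0%. Complement C3, the central complement component, had 23 and 23 counts untreated and 41 and 61 at 8 h in RelA-TA-KI, against 43 and 38 untreated and 1148 and 2069 at 8 h in WT. Its WT rise was 5.38 (SE 0.41, adjusted p = 5.33e-07), its RelA-TA-KI fold 1.13 (SE 0.57, adjusted p = 0.123) and its difference of responses -4.24 (SE 0.77, adjusted p = 0.00572). The copper carrier Cp had the other called difference of responses among the 10 (-1.71, SE 0.33, adjusted p = 0.00749), where 6.87% of all genes were called either way. The serine protease inhibitors rose in both genotypes: Serpina3g by 2.86 (SE 0.21) in RelA-TA-KI and 3.69 (SE 0.20) in WT, and Serpina3n by 2.08 (SE 0.48) and 2.60 (SE 0.50), with a difference of responses of -0.52 (SE 0.71, adjusted p = 0.714) for Serpina3n. The metallothionein Mt2 rose by 1.46 in RelA-TA-KI and 1.92 in WT, and Il1rn, the interleukin 1 receptor antagonist, by 1.64 and 1.17. After 8 h of LPS 9 of 9 tested genes of this list were higher over both genotypes, beside 30.9% of all genes, led by C3 (6.70), Serpina3g (6.42), Mt2 (4.10) and Cp (4.04), and the shared genotype difference was lower for C3 (-2.75), Cp (-1.25), C4b (-0.64) and Mt2 (-0.44).

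**Figure D5:**
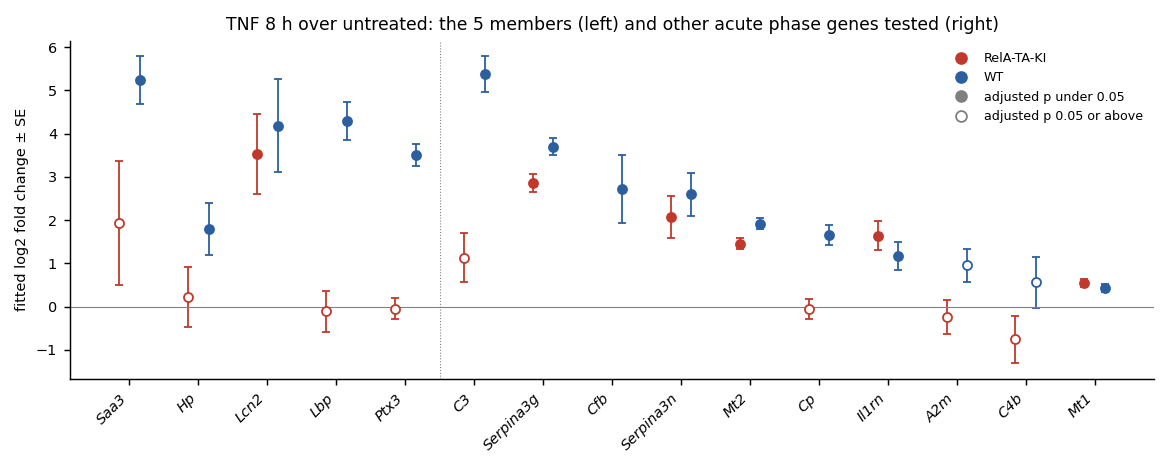
Fitted log2 fold changes after 8 h of TNF with their SE, RelA-TA-KI left of WT, for the 5 genes on the left and the 10 other acute phase genes tested on the right, in the order of their WT fold; filled points passed an adjusted p of 0.05, and Cfb in RelA-TA-KI, with no count, is not drawn. C3 stands at 1.13 in RelA-TA-KI and 5.38 in WT, while Serpina3g, Serpina3n, Mt2, Il1rn and Mt1 are filled in both.

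The regulators of the acute phase response were mostly higher with TNF in both genotypes. At 8 h, 17 of 24 rose and 2 fell in RelA-TA-KI (median 1.19), where 21.6% of all genes were called higher and 20.5% lower, and 16 rose and 1 fell in WT (median 1.04), where 12.0% were called higher and 8.80% lower. Interleukin 6 (Il6), the main hepatic inducer, rose by 3.84 in RelA-TA-KI (SE 0.39, adjusted p = 3.7e-06) and 2.65 in WT (SE 0.47, adjusted p = 0.000965), and stood higher in RelA-TA-KI at 8 h (1.57, SE 0.30, adjusted p = 0.00309). Of the 3 C/EBP factors listed, Cebpb and Cebpd rose in both genotypes, Cebpb by 1.19 (SE 0.20) in RelA-TA-KI and 1.09 (SE 0.19) in WT, and Cebpd by 0.52 (SE 0.17) and 0.98 (SE 0.17). Cebpa stood at -0.27 in RelA-TA-KI (SE 0.23, adjusted p = 0.358) and fell in WT (-1.02, SE 0.25, adjusted p = 0.0105). Nfkbiz, the atypical IkB protein required for part of the secondary inflammatory genes in macrophages, peaked early in WT (3.01 at 0.5 h) and was called at 8 h in RelA-TA-KI (1.64, SE 0.27, adjusted p = 0.000229) but not in WT (0.57, SE 0.28, adjusted p = 0.173), with an uncalled difference of responses of 1.07 (SE 0.39, adjusted p = 0.114). Stat3 stood at -0.19 in RelA-TA-KI (adjusted p = 0.0904) and -0.01 in WT (adjusted p = 0.951). The cytokine Lif had a larger response in RelA-TA-KI (2.11, SE 0.32, adjusted p = 0.00177), and the receptor chains Lifr (-1.22, SE 0.26) and Il6st (-1.06, SE 0.15) and the NF-kB subunit Relb (-1.03, SE 0.19) had lower ones. In the second table Il1a (-3.46, SE 0.41, adjusted p = 0.000161), Il1b (-2.29), Nfkbia (-1.61) and Relb (-1.19) were lower in RelA-TA-KI over the 9 conditions, and Il6 was at 0.39 (SE 0.45, adjusted p = 0.609).

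Among 17 receptors and partners of these proteins, 13 were tested with TNF, of which 6 rose and 2 fell in RelA-TA-KI and 6 rose and 0 fell in WT at 8 h, beside the same shares of all genes. Cd14, the receptor to which Lbp delivers LPS, rose by 2.95 in RelA-TA-KI (SE 0.41, adjusted p = 5.83e-05) and 1.49 in WT (SE 0.41, adjusted p = 0.0188), and was higher in RelA-TA-KI at 8 h (1.60, SE 0.38, adjusted p = 0.0108). Tlr2, a receptor for bacterial lipopeptides, rose by 2.38 in RelA-TA-KI (SE 0.38) and 3.57 in WT (SE 0.39). Mmp9, the gelatinase that binds lipocalin 2, rose by 4.13 (SE 0.46) in RelA-TA-KI and 3.43 (SE 0.45) in WT. Tnfaip6, whose protein binds pentraxin 3 in hyaluronan matrix, rose by 1.35 in RelA-TA-KI (SE 0.38, adjusted p = 0.0107) and 1.54 in WT (SE 0.38, adjusted p = 0.00985). Hmox1 encodes the haem oxygenase that acts on haem taken up with haptoglobin. It was the 1 gene of the 13 tested with a called difference of responses (0.77, SE 0.13, adjusted p = 0.00411), near the 6.87% of all genes called either way. Cd14 is also expressed by macrophages, whose summed markers were higher in RelA-TA-KI at 8 h as given above; their part was not tested.

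The genes whose log2 CPM followed each member most closely over the 20 TNF libraries were read as a description, since these libraries share times and genotypes. For Saa3 they were C3 (Pearson r 0.936), Spint2 (0.918) and Chil1 (0.917). For Lbp they were the antigen-processing genes Tap2 (0.958), Psme1 (0.947) and H2-Q4 (0.946). For Ptx3 they were Birc2 (0.958), Pnkd (0.953) and Steap4 (0.943). Likeness was weaker for Lcn2, with Rcl1 (0.878), Mmp13 (0.873) and Tmed8 (0.865), and for Hp, with Crbn (0.823), Vwa5a (0.789) and Tnfrsf14 (0.781).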

How the data were processed

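The submitters' processing notes name cutadapt 1.9.1, STAR, featureCounts 1.4.6 and DESeq2, and the build mm10. The deposited values are raw counts, whole numbers per gene in 2 tables of 45706 rows each; a table of gene names gave symbols for 45143, and GENCODE M21 served for overlaps. No column was left out (0). Annotation release, strand setting and multi-mapping rules are not given in the sources used here.

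The 5 members, the lists and the tests were chosen with earlier results of these data known. The TNF table was tested with edgeR 4.0.16 in R 4.3.3: TMM, filterByExpr, group means, quasi-likelihood F test on 10 residual degrees of freedom, p-values adjusted by Benjamini-Hochberg across 13843 genes; a call is an adjusted p under 0.05. SE is the absolute log2 fold over the square root of F. The LPS and Poly(I:C) table was fitted with condition plus genotype over 12752 genes (8 degrees of freedom). The labels do not say that replicates came from separate cultures or embryos, so p-values measure the spread between these samples, which may be technical. Log2 CPM uses a prior count of 2. Count ratios have exact 95% binomial intervals, a floor of 3 counts stands for 0, and both cover counting error only. The genes named were all members, the 3 most alike to each, and of each list and comparison up to 4 called genes of largest fold with a mean of at least 20 counts, plus Nfkbiz, Cebpd, Cebpb, Stat3, Il6, Cd14, Serpina3n, C3 and Rela; Cebpa, Ltf, S100a9, Xist, Ddx3y, Veph1, Saa1, Saa2 and genes at 0 were named after their values were seen. Code was tested on simulated data. Alternatives were DESeq2 1.42.0, DESeq2 size factors, no filter, a replicate block, fewer groups, libraries left out, another prior count and total scaling.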

Additional observations from a re-analysis of the deposited data

Results flagged for a closer look

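The responses of Ptx3 and Lbp to TNF differed between RelA-TA-KI and WT cells by a test of the difference itself. For Ptx3 the RelA-TA-KI response minus the WT response was -1.87 at 1 h, -2.88 at 3 h and -3.55 at 8 h on the log2 scale, and for Lbp it was -4.40 at 8 h.

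In the second table, where each LPS or Poly(I:C) condition has 1 library per genotype, some log2 ratios to untreated cells pointed opposite ways in the genotypes; these differences were not tested. For Lbp the RelA-TA-KI ratio lay below 0 and the WT ratio above it, with a difference of -3.88 at 3 h of LPS, -5.88 at 8 h of LPS and -2.39 at 8 h of Poly(I:C). For Saa3 at 3 h of Poly(I:C) the difference was -1.36. The RelA-TA-KI ratios in these cases rested on 7 to 50 counts per library, and each counting interval included a ratio of 1.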

How the results depend on the processing

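With TNF the 5 genes gave 1 call in 20 for the RelA-TA-KI response, 10 in 20 for the WT response, 7 in 25 for the genotype difference, 4 in 20 for the difference of responses and 3 in 10 for the step from 3 to 8 h. Without the filter on low counts these were 4, 11, 13, 8 and 7. LPS against Poly(I:C) then gave 8 calls in 20 in place of 4 in 16. Those 8 include Lcn2 at 3 and 8 h, which the main fit did not test. Smaller SEs went with the other calls gained, as with 0.1 in place of 0.24 for the WT Ptx3 response at 0.5 h. The counts were the same, so the calls gained are not separate support. With the replicate number as a block they were 2, 11, 11, 6 and 6; the labels do not say what a number marks. Same-numbered libraries deviated together, with correlations of 0.006 to 0.529 (median 0.248) over 45 pairs of groups and 44 over 0.1, a hint from the data and not the design. With the block the calls gained included the genotype differences of Hp at 8 h (-1.82, adjusted p = 0.00215) and of untreated Ptx3 (0.444, adjusted p = 0.0336). The RelA-TA-KI fall of Lbp at 3 h was among them as well (-0.999, adjusted p = 0.0244). A fit of only the groups of a contrast gave 0 calls for the step. The libraries with one pattern of Xist and Ddx3y, an alternative chosen after seeing the data, gave 2 RelA-TA-KI calls and 5 WT calls. Leaving out each library in turn gave 0 to 1, 5 to 10, 6 to 8, 3 to 5 and 2 to 4 calls, and in the second table leaving out each of 8 conditions gave 2 to 3 for genotype, and each of the 4 of the other agent 6 for LPS and 1 to 2 for Poly(I:C). Without the LPS 8 h libraries Lbp was called at 3 h of LPS (2.28, adjusted p = 0.0207). The cause of these changes was not tested. DESeq2 and DESeq2 size factors in edgeR kept every such count within 1.5 times. No value of the 5 genes that was called changed its sign under any of these alternatives. Low counts limit Lcn2 and RelA-TA-KI Saa3 with TNF, at most 13 and 8 per library.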
